A study of Mus musculus with 2 samples.

Results

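Mitochondrial ribosomal protein genes are the nuclear genes for the proteins of the mitochondrial ribosome (mitoribosome). They were taken by name, as every gene whose symbol begins with Mrpl or Mrps and a digit. Of 77 such symbols among 26127 genes, 1 pseudogene and 2 genes on chromosome 8 were left out, which left 74 genes on 16 chromosomes. All 74 had at least 0.25 RPKM (read density scaled for transcript length and library size) in 1 sample and were kept in every count below. The 2 genes on chromosome 8 were Mrps31, at 22.07 RPKM in WT and 13.57 RPKM in G34R cells, and Mrpl34, at 28.46 and 30.34 RPKM. With both kept, the median log2 (G34R/WT RPKM) of the genes stayed at -0.19.

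RNA was sequenced from wild-type (WT) mouse embryonic stem (ES) cells and from H3.3 G34R ES cells, both of strain 129S1/SvImJ, below passage 20 and grown with serum and leukemia inhibitory factor. H3.3 is a histone H3 variant made from H3f3a and H3f3b. In G34R cells exon 2 of 1 H3f3a copy was replaced and Cre-recombinase then placed a mutant minigene, with arginine for glycine at residue 34, under the gene's own promoter, while the other H3f3a copy and both copies of H3f3b remained WT. Each cell line gave 1 library of total RNA, so no value has a replicate, no test between the cell lines was possible, and genotype cannot be told apart from clone, culture or library. The 95% intervals below cover counting error only, as estimated from read depth. Levels per cell and the number of cells cannot be told apart in such samples either.

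Mitoribosomes translate the few mRNAs encoded by mitochondrial DNA, all of them for membrane subunits of the respiratory chain and ATP synthase. Their rRNAs come from mitochondrial DNA, while every protein is encoded in the nucleus, made in the cytosol and imported. Compared with a bacterial ribosome, the mitoribosome has less rRNA and more protein, with a set of proteins that bacteria lack. ES cells draw much of their energy from glycolysis and have small, immature mitochondria.

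The estimated depth was 88.05 M reads in WT and 72.5 M in G34R cells. All 13 genes on the mitochondrial chromosome were listed at 0 in both samples, so neither the rRNAs nor the products of the mitoribosome could be followed. Gene-level RPKM does not separate the mutant and WT copies of H3f3a. ES cell markers were high in both samples, with 8 of 8 found and sums of 975.35 RPKM in WT and 791.08 RPKM in G34R cells. Single markers went both ways. Nanog was lower, at 127.07 and 52.24 RPKM, as was Zfp42, at 180.30 and 16.40 RPKM. Klf4 was higher, at 25.14 and 43.71 RPKM, as was Utf1, at 61.89 and 108.56 RPKM. Pou5f1 was near level at 194.34 and 189.46 RPKM, as were Sox2, Tdgf1 and Esrrb (log2 ratios 0.02, -0.03 and -0.04). The 7 fibroblast markers summed to 1.48 and 0.94 RPKM, with Dcn, Lum and Postn at 0 in both. Summed markers were 1.91 and 4.07 RPKM for primitive endoderm (6 genes), 0.56 and 2.19 RPKM for mesoderm (4 genes) and 37.07 and 9.95 RPKM for neuroectoderm (3 of 4 genes found). The neuroectoderm sum was almost all Tubb3 (35.58 and 8.36 RPKM), while Nes was at 1.36 and 1.56 RPKM and Pax6 at 0.13 and 0.03 RPKM. Marker sums keep genes on chromosome 8, here Tubb3 and Zfp42. The part of these differences in the values below was not tested.

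Promoters of the members with the lowest and the highest ratios are printed here because these are the genes that stood furthest from equal levels. Mrpl32 and Mrpl18 had the lowest log2 (G34R/WT RPKM), and Mrpl55 and Mrps21 the highest. Each line holds the 250 bases before the annotated start in RefSeq (GRCm38.p6), 5′ to 3′ on the strand of the gene. Capitals mark matches on either strand to CCGGAAG (ETS factors such as GABP), GCATGCGC (NRF-1), AAGATGGC (YY1) or GGGCGG (GC box, Sp1 family), which are letters bound by factors known to act on nuclear genes of mitochondrial function.
Mrpl32 promoter, chr13:14613038-14613287, minus strand: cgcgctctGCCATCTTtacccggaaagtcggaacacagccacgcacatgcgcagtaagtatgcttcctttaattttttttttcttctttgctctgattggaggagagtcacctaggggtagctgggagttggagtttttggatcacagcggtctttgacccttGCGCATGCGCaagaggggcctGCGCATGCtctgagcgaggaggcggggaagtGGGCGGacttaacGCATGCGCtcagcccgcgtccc
Mrpl18 promoter, chr17:12916092-12916341, minus strand: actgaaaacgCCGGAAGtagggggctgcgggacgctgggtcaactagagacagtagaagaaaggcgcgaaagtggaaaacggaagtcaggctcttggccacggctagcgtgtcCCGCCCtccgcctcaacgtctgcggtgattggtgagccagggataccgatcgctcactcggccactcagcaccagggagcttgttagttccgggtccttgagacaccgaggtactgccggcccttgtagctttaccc
Mrps21 promoter, chr3:95871515-95871764, minus strand: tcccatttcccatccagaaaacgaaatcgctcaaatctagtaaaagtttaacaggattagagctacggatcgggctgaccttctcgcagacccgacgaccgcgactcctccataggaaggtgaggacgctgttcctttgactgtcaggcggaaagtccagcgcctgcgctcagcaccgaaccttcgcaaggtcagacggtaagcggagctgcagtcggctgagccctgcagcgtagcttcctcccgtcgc
Mrpl55 promoter, chr11:59202236-59202485, plus strand: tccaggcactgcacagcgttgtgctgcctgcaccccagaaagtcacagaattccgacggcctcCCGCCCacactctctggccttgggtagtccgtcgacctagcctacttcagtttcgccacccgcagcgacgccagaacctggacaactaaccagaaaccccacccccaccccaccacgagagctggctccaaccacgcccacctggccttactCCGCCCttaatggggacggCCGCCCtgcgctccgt
The Mrpl32 promoter held 4 matches to GCATGCGC, counting both strands and overlaps, with 1 to AAGATGGC and 1 to GGGCGG. The Mrpl18 promoter held 1 match to CCGGAAG and 1 to GGGCGG. The printed Mrps21 window held none of the 4 motifs, and Mrpl55 held 3 matches to GGGCGG only. The motif counts over all members, given further below, use a window that runs on to 50 bases past the start, where Mrps21 has 1 match to CCGGAAG.

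Most mitoribosomal genes were slightly lower in G34R cells. Of the 74 genes, 55 were lower and 19 higher in G34R than in WT cells, or 74.3% lower, beside 55.0% of all 13366 genes with at least 0.25 RPKM. Their median log2 (G34R/WT RPKM) was -0.19 (interquartile range -0.38 to 0.00), beside -0.07 (-0.42 to 0.27) for all genes. Summed over the 74 genes, RPKM were 1101.27 in WT and 950.77 in G34R cells, a share of 0.704% and 0.627% of all RPKM. Of these genes, 46 were within 1.25-fold of equal levels, a share that was not counted for all genes. When both libraries were rescaled to the same RPKM sum, 51 genes were lower and 23 higher, or 68.9% lower beside 51.8% of all genes.

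No member differed by more than 2-fold, the threshold the study used. Of all genes with at least 0.25 RPKM, 9.64% were more than 2-fold lower and 5.79% more than 2-fold higher in G34R cells. That filter admits lower genes than the members, which had at least 1.16 RPKM in both samples. Of 10728 genes with at least 1 RPKM, 689 were more than 2-fold lower and 439 higher. With at least 5 RPKM these counts were 239 and 181 of 5867. At 1.5-fold, 5 members were lower (Mrpl32, Mrpl18, Mrpl51, Mrps17 and Mrpl42) and 2 were higher (Mrpl55 and Mrps21). With the libraries rescaled to the same RPKM sum, 2 of the 5 lower members were past 1.5-fold (Mrpl32 and Mrpl18), and with ratios centred on the median of all genes 1 was (Mrpl32), while both higher members stayed past it. Of all genes with at least 0.25 RPKM, 18.2% were more than 1.5-fold lower and 13.3% more than 1.5-fold higher. Among genes with at least 5 RPKM these shares were 10.6% and 9.31%. The 5 lower and 2 higher of 74 were below these shares, more narrowly on the lower side, and the differences were not tested. The members lay in a narrow band, with log2 ratios from -0.91 to 0.66. The counting interval lay below 0 for 46 members, above 0 for 12, and held 0 for 16. These counts are taken against 0 and not against the median of all genes, -0.07. Some of the 46 lay only just below 0, such as Mrpl2 (upper limit -0.003). No interval was computed for other genes, so no share of all genes can be set beside these counts. The half-width of the interval had a median of 0.097 and reached at most 0.24, from 316 to 9058 estimated reads per gene in WT and 263 to 7446 in G34R cells.

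**Figure D1:**
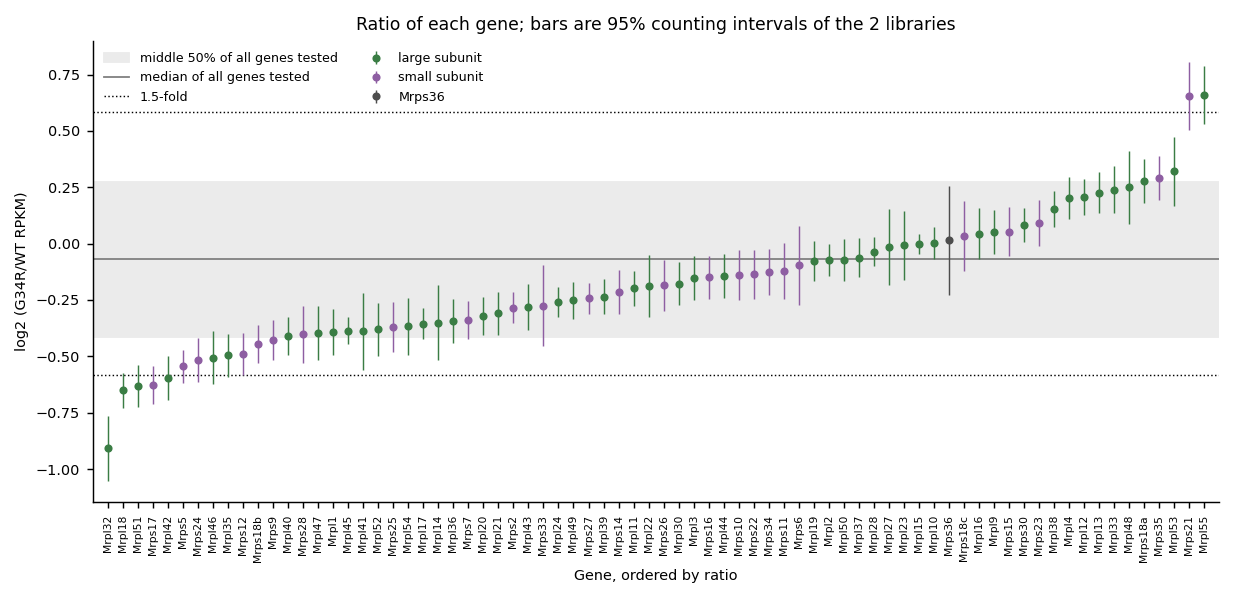
Points show log2 (G34R/WT RPKM) of each of the 74 genes in ascending order, with 95% counting intervals. The shaded band is the interquartile range of all genes tested and the grey line their median, -0.07. Most points lie below 0, 5 lie under and 2 above the dotted 1.5-fold lines.

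Mrpl32 encodes bL32m, which is cut to its mature form by the m-AAA protease before it joins the large subunit, and it had the lowest ratio of all members. It was at 18.74 RPKM in WT and 9.99 RPKM in G34R cells, from an estimated 1267 and 556 reads (log2 ratio -0.91, interval -1.05 to -0.76). The interval of Mrpl32 did not reach that of any other member. The gene lies on chromosome 13 at 14702568 to 14705304 of mm9, on the minus strand, with 3 annotated exons.

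Mrpl18 encodes uL18m, a protein of the central protuberance, the crown of the large subunit. It was at 31.57 RPKM in WT and 20.12 RPKM in G34R cells (log2 ratio -0.65, interval -0.73 to -0.57), and lies on the minus strand of chromosome 17 at 13104215 to 13109211 of mm9. Mrpl51 encodes a large subunit protein without a bacterial counterpart and was at 9.26 and 5.98 RPKM (-0.63, -0.72 to -0.54). Mrps17, for the small subunit protein uS17m, was at 15.86 and 10.28 RPKM (-0.63, -0.71 to -0.54). Mrpl42, for another large subunit protein that bacteria lack, was at 41.61 and 27.54 RPKM (-0.60, -0.69 to -0.50). The intervals of these 4 genes overlapped, so their order is not resolved by counting error.

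The members on the other side were fewer. Mrpl55, a mitochondria-specific protein of the large subunit, was at 9.45 RPKM in WT and 14.93 RPKM in G34R cells (log2 ratio 0.66, interval 0.53 to 0.79). It lies on the plus strand of chromosome 11 at 59015988 to 59019636 of mm9. Mrps21, for the small subunit protein bS21m, was at 5.54 and 8.72 RPKM (0.65, 0.50 to 0.81), and lies on the minus strand of chromosome 3 at 95666557 to 95675442. Both stood apart from the next highest member, Mrpl53, at 10.63 and 13.29 RPKM (0.32, 0.17 to 0.48).

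Levels spanned a wide range and their order was largely the same in both samples. In WT cells they ran from 1.16 RPKM (Mrpl48) to 42.68 RPKM (Mrpl11), a 36.8-fold range, and in G34R cells the range was 27.2-fold. Across the 74 genes, Pearson's r of log2 RPKM between the samples was 0.967 and Spearman's rho 0.952, as a description of genes that share their length and sequence in both samples. Of the 10 highest members in each sample, 7 were shared. The largest change of rank was 25 places, for Mrpl55, which was 47th in WT and 22nd in G34R cells.

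The highest levels belonged to Mrpl11, at 42.68 RPKM in WT and 37.18 RPKM in G34R cells, and Mrps16, at 40.74 and 36.72 RPKM. Mrpl28 was at 38.41 and 37.48 RPKM and Mrpl52 at 41.64 and 32.02 RPKM. Mrpl2, a protein close to the peptidyl transferase centre, was at 36.37 and 34.57 RPKM and Mrpl20 at 29.14 and 23.32 RPKM. These 6 genes, with Mrpl42 and Mrpl18, had the highest mean RPKM, and all 8 were lower in G34R cells as deposited. Mrpl28 differed by less than counting error (-0.04, interval -0.10 to 0.03) and its sign turned when the libraries were rescaled.

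The lowest were Mrpl48, at 1.16 RPKM in WT and 1.38 RPKM in G34R cells, Mrps10, at 2.17 and 1.97 RPKM, and Mrpl33, at 2.27 and 2.68 RPKM. Mrps25 was at 2.96 and 2.29 RPKM. Mrps36 was at 2.82 and 2.85 RPKM (log2 ratio 0.02, interval -0.23 to 0.26). Its protein, once named after the small subunit, is known as a part of the 2-oxoglutarate dehydrogenase complex, and it was placed in neither subunit below.

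**Figure D2:**
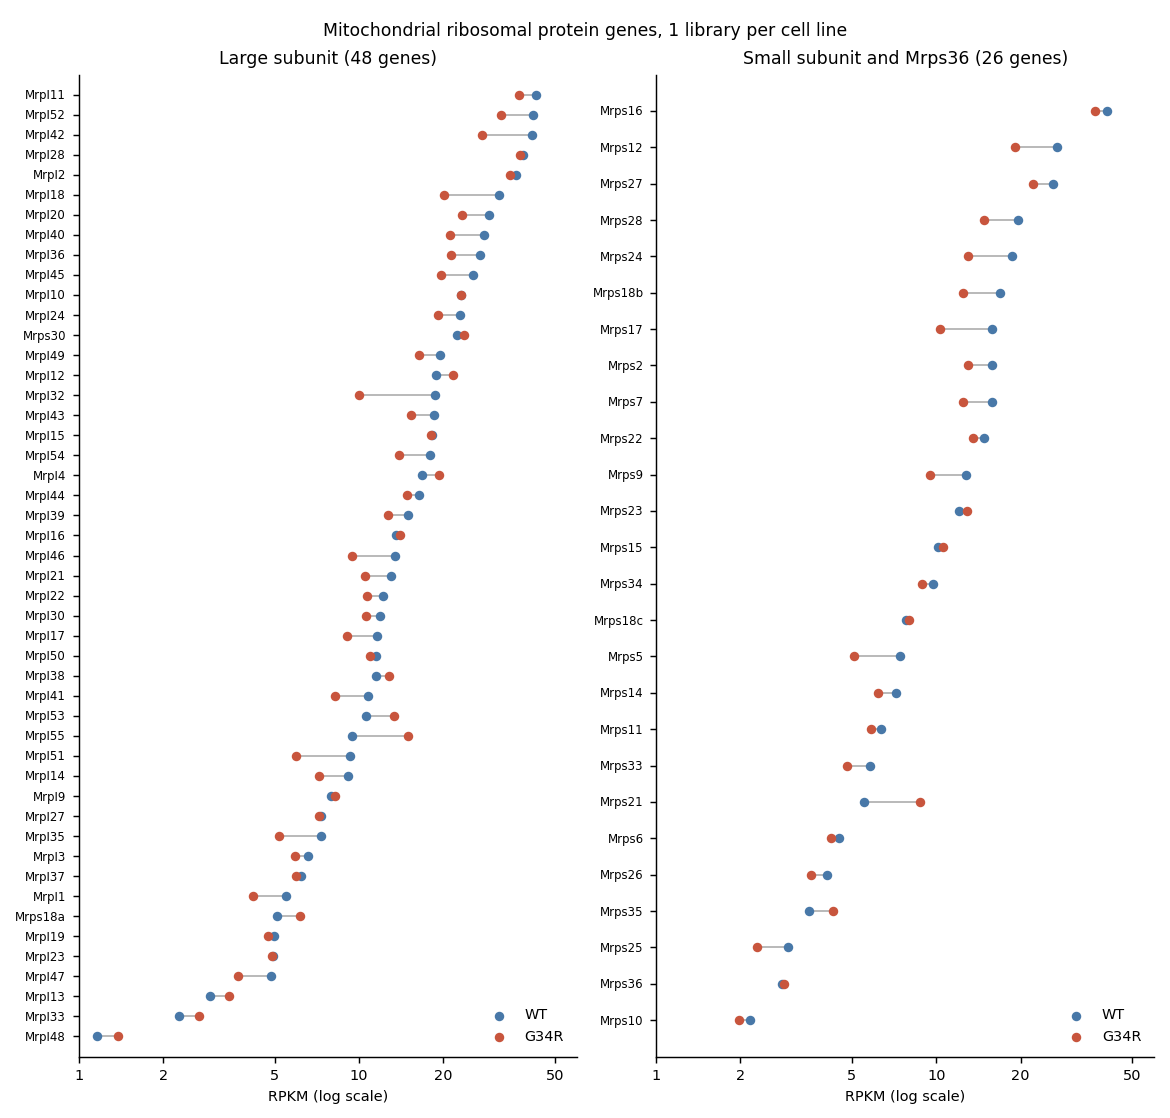
RPKM of each gene on a log axis in WT (blue) and G34R (red) cells, for the 48 large subunit genes and for the 25 small subunit genes with Mrps36, ordered by WT level. Grey lines join the libraries of a gene, and red lies to the left of blue for 55 of the 74 genes.

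The subunits differed little from each other. The 48 genes of the large subunit, which forms peptide bonds, had a median log2 ratio of -0.18, with 35 lower and 13 higher. The 25 genes of the small subunit, which holds the mRNA, had a median of -0.22, with 20 lower and 5 higher. Summed RPKM were 785.29 in WT and 683.74 in G34R cells for the large subunit and 313.16 and 264.18 RPKM for the small subunit. The 28 large subunit proteins with a bacterial counterpart had a median of -0.16 and the 20 without had -0.24. For the small subunit the medians were -0.25 for 16 genes with and -0.19 for 9 without a counterpart.

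The small subunit genes listed for the decoding site and the mRNA path were lower in 5 of 5 cases, with a median log2 ratio of -0.49. Of all 25 small subunit genes 20 were lower and 5 higher (80% lower), with a median of -0.22. The list does not cover every protein near the mRNA. Small subunit genes outside it include Mrps11 (-0.12), Mrps18c (0.03) and Mrps21 (0.65), so the count of 5 of 5 depends on the choice of genes. This short list was chosen with earlier results of these data known, and its difference from the other small subunit genes was not tested. Mrps12 encodes uS12m, which sits at the decoding centre and was at 26.90 RPKM in WT and 19.16 RPKM in G34R cells (-0.49, interval -0.58 to -0.39). Mrps5, for uS5m beside the mRNA entry site, was at 7.44 and 5.10 RPKM (-0.54, -0.62 to -0.47). Mrps24, for uS3m on the same side, was at 18.60 and 13.00 RPKM (-0.52, -0.61 to -0.42). Mrps7 and Mrps2, whose proteins lie towards the mRNA exit side, differed less. Mrps7 was at 15.79 and 12.48 RPKM (-0.34, -0.42 to -0.25) and Mrps2 at 15.85 and 13.02 RPKM (-0.28, -0.35 to -0.21).

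Genes of the peptide exit tunnel, through which new chains leave the large subunit, were lower in 7 of 7 cases as deposited (median log2 ratio -0.24). Of all large subunit genes 72.9% were lower, and Mrpl23 turned to higher when the libraries were rescaled. Mrpl45, whose protein helps to hold the mitoribosome at the inner membrane, was at 25.59 RPKM in WT and 19.57 RPKM in G34R cells. Mrpl47, the counterpart of bacterial uL29, was at 4.87 and 3.70 RPKM. These had the lowest ratios of the group, at -0.39 and -0.40. Mrpl24 was at 22.91 and 19.17 RPKM, Mrpl39 at 14.94 and 12.69 RPKM, Mrpl22 at 12.20 and 10.71 RPKM, and Mrpl44 at 16.37 and 14.82 RPKM. Mrpl23 was level, at 4.92 and 4.90 RPKM.

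The L7/L12 stalk, the arm that recruits the translation factors to the large subunit, had members on both sides of equal levels. Its 5 genes had a median log2 ratio of 0.00, with 2 lower and 3 higher, of which Mrpl10 was level. Mrpl12, the stalk protein itself, was at 18.79 RPKM in WT and 21.68 RPKM in G34R cells (0.21, interval 0.13 to 0.29). Mrpl10, the anchor of the stalk, was at 23.13 and 23.20 RPKM (0.00, -0.07 to 0.08). Mrpl54 was at 17.96 and 13.92 RPKM (-0.37, -0.49 to -0.24), the opposite direction to Mrpl53.

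The central protuberance held members on both sides of equal levels. Mrpl46 was at 13.43 RPKM in WT and 9.46 RPKM in G34R cells (log2 ratio -0.51) and Mrpl40 at 28.03 and 21.11 RPKM (-0.41), both lower as was Mrpl18. Mrpl38 was at 11.47 and 12.76 RPKM (0.15) and Mrpl48 at 1.16 and 1.38 RPKM (0.25), both higher. The 5 genes had a median of -0.41.

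The 3 Mrps18 paralogs, relatives of bacterial bS18 that take different places in the mitoribosome, differed from one another. Mrps18a, whose protein lies in the large subunit, was at 5.08 RPKM in WT and 6.16 RPKM in G34R cells (log2 ratio 0.28, interval 0.18 to 0.38). Mrps18b was at 16.87 and 12.40 RPKM (-0.44, -0.53 to -0.36). Mrps18c was level, at 7.81 and 8.0 RPKM (0.03, -0.12 to 0.19). The intervals of these paralogs did not overlap between Mrps18b and either of the others. For Mrps18b 38.2% and for Mrps18c 21.3% of exonic 50-base words also occur elsewhere in mm9, so that reads may be shared with copies.

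Such copies were common among the members, many of which have processed pseudogenes. Over 5% of exonic 50-base words, the length of a read, occurred elsewhere in the genome for 24 members, and none did for 32. The share was highest for Mrps36 (44.3%) and Mrps33 (41.7%). Of the 7 members past 1.5-fold, it was 0 for Mrps17 and Mrpl55, 5.96% for Mrpl32, 11.5% for Mrpl18, 12.3% for Mrpl42, 13.6% for Mrpl51 and 17.2% for Mrps21. Without the 24 genes the median log2 ratio of the members was -0.15. The authors used primary alignments of STAR with default settings, so a read with several equal matches enters at 1 of them, and the values of these genes are uncertain to that extent.

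RPKM also depends on the gene model. Seqmonk merges the isoforms of a gene, and for some members the merged exons are much longer than the longest annotated coding transcript. This ratio was 15.6 for Mrpl33, 7.26 for Mrps10, 6.49 for Mrpl13 and 5.16 for Mrps35, and it was at least 2.5 for 8 members, the others being Mrps18a, Mrpl37, Mrps21 and Mrpl23. These 8 had a median WT level of 4.21 RPKM and a median log2 ratio of 0.23, with 5 higher and 3 lower. The 54 members under 1.5 had a median WT level of 15.82 RPKM and a median log2 ratio of -0.28, with 44 lower and 10 higher. This grouping was chosen after the values were seen. Among all genes with at least 5 RPKM, the medians of both classes were -0.05. That filter was not applied to the members, so the 2 sides are not alike in level. Of the 8 members, Mrpl33, Mrps10, Mrpl13, Mrps35 and Mrpl23 were under 5 RPKM in both samples.

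**Figure D3:**
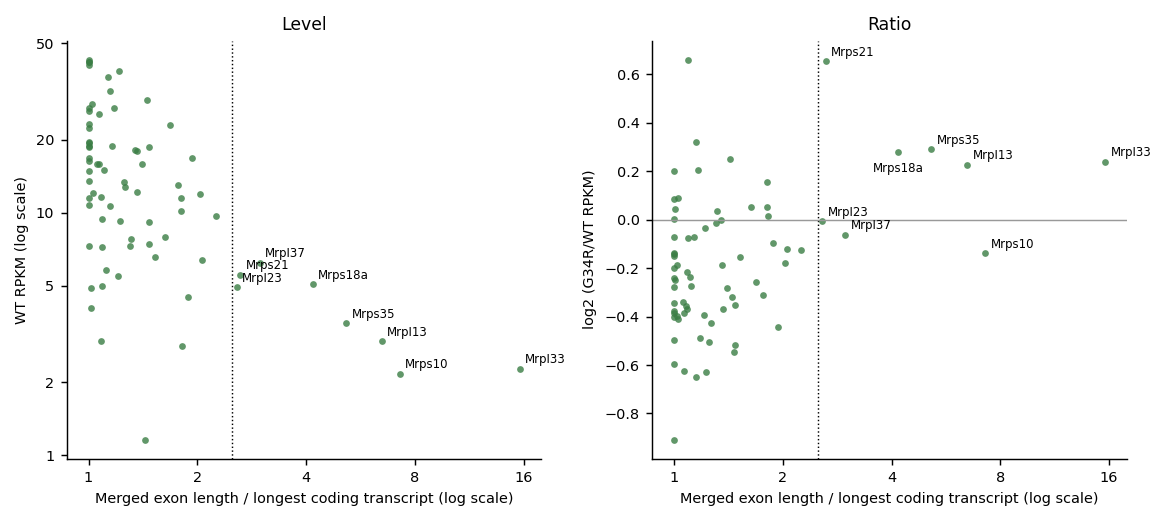
Each point is a gene, placed by merged exon length over the length of its longest coding transcript (log axis), with WT RPKM on a log axis in the left panel and log2 (G34R/WT RPKM) in the right. Genes right of the dotted line, at a ratio of 2.5, are named, lie at or below 6.22 RPKM in WT cells, and 5 of these 8 lie above 0 in the right panel.

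Most members are short, with a median merged exon length of 1718.5 bp beside 3152.5 bp for genes with at least 5 RPKM. Of the 74 members, 40 fell in the shortest length quartile of those genes, where the median log2 ratio was -0.15 for all genes and -0.17 for members. In the next 2 quartiles the medians were -0.05 and -0.04 for all genes and -0.26 and -0.29 for the 15 and 10 members there. In the longest quartile they were -0.01 for all genes and 0.00 for 9 members. The members were placed in length and GC quartiles without the filter of 5 RPKM, so the 2 sides are not alike in level. Of the 9 longest members, Mrps10, Mrpl13 and Mrpl33 were among those under 5 RPKM in both samples. Across GC quartiles from low to high, the medians of all genes were -0.20, -0.11, 0.00 and 0.11 and those of members -0.18, -0.24, -0.17 and -0.13 (12, 21, 28 and 13 members). Members lay below all genes in every GC quartile except the lowest. The part of length and GC in the ratios was not tested.

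Read density of 7 members may include reads of a gene that overlaps on the same strand. Mrpl33 overlaps Bre (4.70 RPKM in WT, 6.09 RPKM in G34R cells), and Mrpl53 overlaps Ccdc142 (2.33 and 2.90 RPKM). Mrps24 overlaps Urgcp (1.53 and 0.81 RPKM) and Mrps34 overlaps Nme3 (7.58 and 6.73 RPKM). In each of these 4 cases the overlapping gene lay on the same side of equal levels as the member. Mrps6, at 4.50 and 4.21 RPKM, did not, since it was slightly lower while the overlapping Slc5a3 (1.15 and 1.60 RPKM), Gm16309 (1.22 and 2.09 RPKM) and Gm16310 (0.21 and 0.30 RPKM) were all higher. The genes that overlap Mrpl48 (D630004N19Rik) and Mrpl2 (Gm16736) were at or below 0.07 RPKM.

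A head-to-head neighbour, a gene that starts within 500 bp on the opposite strand, was present for 27 members. Of the 23 such neighbours that passed the filter and are not members themselves, 14 were lower in G34R cells, with a median log2 ratio of -0.04. The members with a neighbour had a median of -0.19, as did the 47 without. The neighbours named next were picked after their values were seen. Psma2, a proteasome subunit gene that starts 217 bp from Mrpl32, was at 31.68 RPKM in WT and 23.73 RPKM in G34R cells (log2 ratio -0.42), the same side as Mrpl32. Ncapd2, for a condensin subunit, starts 206 bp from Mrpl51 and was at 32.51 and 65.35 RPKM (1.01), the opposite of Mrpl51. Sars2, for the mitochondrial seryl-tRNA synthetase, starts 171 bp from Mrps12 and was at 6.76 and 9.71 RPKM (0.52), again opposite to its neighbour. Mrpl46 and Mrps11 are a pair of members that share a start region, and Mrps11 was at 6.37 and 5.86 RPKM (-0.12), less far from 0 than Mrpl46.

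Promoter sequences of RefSeq, from 250 bases before to 50 after the start, were found for 65 members (71 promoters). The ETS motif CCGGAAG was in 32.4% of these promoters, beside 21.2% of promoters of genes with at least 5 RPKM and 8.86% of all promoters of the same length. The NRF-1 motif GCATGCGC was in 11.3%, 6.53% and 2.71%, and the YY1 motif AAGATGGC in 16.9%, 5.65% and 2.75%. The GC box GGGCGG was in 53.5% of member promoters and 67.4% of promoters of genes with at least 5 RPKM, and the shares for CCAAT (40.8% and 39.7%) and the E box CACGTG (9.86% and 11.8%) were near each other. Motifs were searched on both strands. At least 1 of the ETS, NRF-1 and YY1 motifs was present for 35 members and in 49.3% of their promoters, beside 30.3% for genes with at least 5 RPKM.

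The ratios of members with and without each motif were compared as medians. The median log2 ratio was -0.19 for 23 members with the ETS motif and -0.24 for 42 without, and -0.21 for 8 with the NRF-1 motif and -0.22 for 57 without. It was -0.34 for 12 members with the YY1 motif and -0.19 for 53 without, and those 12 ran from -0.91 (Mrpl32) to 0.28 (Mrps18a), with 11 lower and 1 higher. For the GC box the medians were -0.28 (33 members) and -0.16 (32 members), for CCAAT -0.17 (26 members) and -0.25 (39 members), and for the E box -0.07 (5 members) and -0.23 (60 members). Lower and higher members numbered 16 and 7 with the ETS motif, 5 and 3 with NRF-1 and 28 and 5 with the GC box. They numbered 20 and 6 with CCAAT and 4 and 1 with the E box, beside 55 and 19 of all 74 members. None of these differences was tested.

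**Figure D4:**
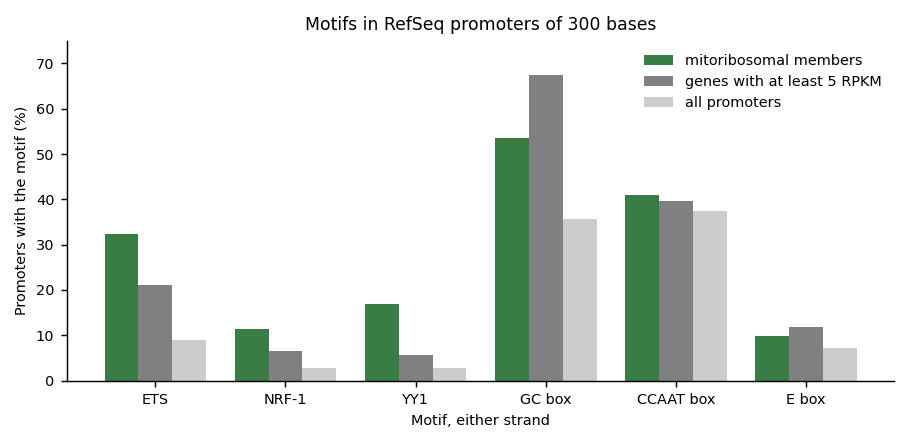
Bars give the percent of RefSeq promoters of 300 bases that hold each motif on either strand, for mitoribosomal members (green, 71 promoters), genes with at least 5 RPKM (grey) and all promoters (light grey). The ETS, NRF-1 and YY1 bars are highest for members, and the GC box bar is highest for genes with at least 5 RPKM.

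Genes for the regulators known to act on these motifs were compared directly. Gabpa, the ETS factor subunit that binds DNA in GABP, was at 16.84 RPKM in WT and 13.24 RPKM in G34R cells (log2 ratio -0.35). Nrf1 was at 3.59 and 3.44 RPKM (-0.06) and Yy1 at 14.03 and 13.49 RPKM (-0.06). Of the coactivators, Pprc1 was at 16.25 and 20.86 RPKM (0.36), Ppargc1b was more than 2-fold higher at 0.71 and 1.57 RPKM (1.14), and Ppargc1a was listed at 0 in both samples. Mycn was at 30.37 and 23.29 RPKM (-0.38) and Myc more than 1.5-fold higher at 4.76 and 7.49 RPKM (0.65). With 1 added to every value, Ppargc1b was no longer past 2-fold (0.59) nor Myc past 1.5-fold (0.56). The 9 regulators tested had a median log2 ratio of -0.06, with 6 lower and 3 higher.

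Proteins of the mitoribosome with other names lay on both sides of equal levels. The 7 genes had a median log2 ratio of 0.02, with 3 lower and 4 higher. This list and those that follow keep genes on chromosome 8, here Gadd45gip1, at 12.48 RPKM in WT and 17.90 RPKM in G34R cells (0.52). Without it, 3 were lower and 3 higher and the median was -0.02. Chchd1, of the small subunit, was at 34.80 RPKM in WT and 28.59 RPKM in G34R cells (-0.28), and Ptcd3, also of the small subunit, at 31.23 and 21.97 RPKM (-0.51). Aurkaip1 was at 23.31 and 22.58 RPKM (-0.05), and its sign turned with rescaling. None of the 7 was past 1.5-fold.

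The machinery around the mitoribosome was measured in 4 further lists. Of 30 symbols for mitoribosome assembly and rRNA modification, 23 were found, with a median log2 ratio of -0.13 and 16 lower and 6 higher. C1qbp was at 68.08 RPKM in WT and 84.97 RPKM in G34R cells (0.32), and Gtpbp5, a GTPase of large subunit assembly, was the only gene of the list past 1.5-fold, at 1.63 and 1.04 RPKM (-0.65), a call lost with 1 added to every value (-0.37) and with centred ratios (-0.58). Grsf1 (21.86 and 21.61 RPKM) and Rbfa (20.55 and 18.38 RPKM) differed less. The 14 translation factors found had a median of -0.05, and none was past 1.5-fold. Tufm, the elongation factor that brings tRNAs to the mitoribosome, was at 36.78 and 32.67 RPKM (-0.17), Lrpprc, which stabilises mitochondrial mRNAs, at 16.95 and 13.13 RPKM (-0.37), and Gfm1, the elongation factor of translocation, at 14.39 and 13.45 RPKM (-0.10). The 8 genes of mtDNA transcription and maintenance had a median of -0.24, with 7 lower and 1 higher. Tfam, which packages and transcribes mtDNA, was at 9.68 and 8.05 RPKM (-0.27), Polg, the mtDNA polymerase, at 9.29 and 8.05 RPKM (-0.21), and Peo1, the helicase Twinkle, at 6.93 and 7.58 RPKM (0.13).

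The aminoacyl-tRNA synthetases, which charge tRNAs inside mitochondria, had a median log2 ratio of -0.25 over 20 genes, with 16 lower and 3 higher. Lars2, the leucyl enzyme, was the only one past 2-fold, at 40.23 RPKM in WT and 8.23 RPKM in G34R cells (-2.29). Its WT level stood far above that of the next synthetase, Tars2, while its G34R level did not. Sequence shared with other sites of the genome was counted for members only, so reads shared with such sites were not checked for Lars2. Mars2, the methionyl enzyme, was at 4.25 and 2.48 RPKM (-0.78) and Rars2, the arginyl enzyme, at 8.42 and 5.58 RPKM (-0.59), while Vars2, the valyl enzyme, was at 3.90 and 6.54 RPKM (0.75). With 1 added to every value Rars2 was no longer past 1.5-fold (-0.52), nor was it with the libraries rescaled (-0.55). Tars2 (11.60 and 10.02 RPKM) and Aars2 (10.11 and 11.94 RPKM) were the others of high level.

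**Figure D5:**
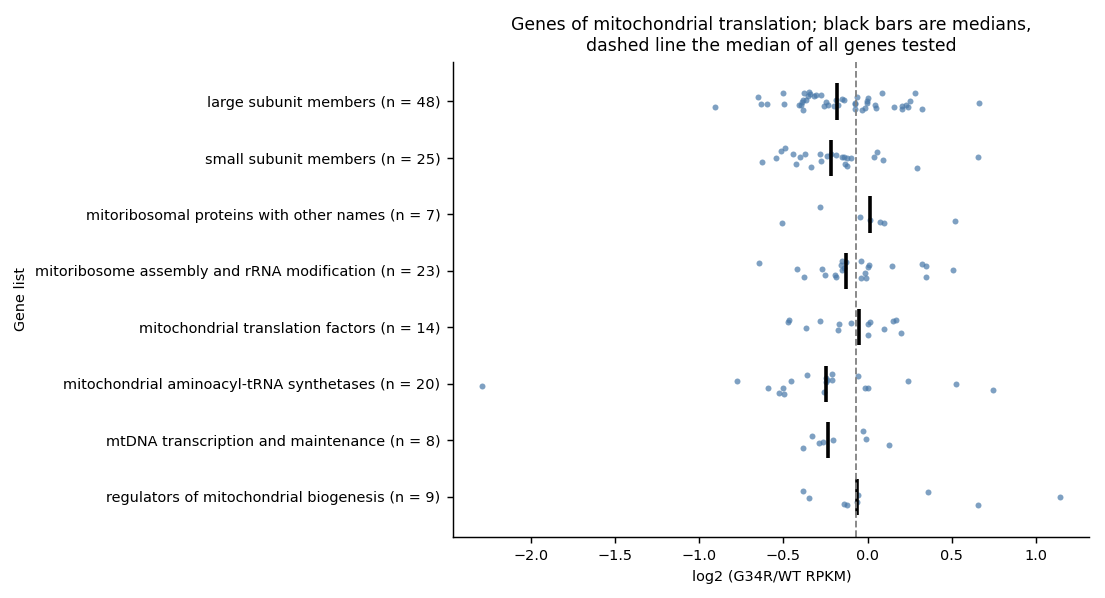
Each point is a gene placed by log2 (G34R/WT RPKM), for the large and small subunit members and 6 further lists. Black bars are medians, from -0.25 for the synthetases to 0.02 for mitoribosomal proteins with other names, and the dashed line is the median of all genes tested. Lars2 lies far to the left, at -2.29.

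The most alike groups were shifted to the same side. The 74 cytosolic ribosomal protein genes off chromosome 8 had a median log2 ratio of -0.29, with 62 lower and 12 higher, and 78 nuclear genes of oxidative phosphorylation had a median of -0.15, with 54 lower and 24 higher. Members were between them, at -0.19. Both groups held genes past 2-fold, with 3 of 74 cytosolic ribosomal protein genes higher and 2 of 78 oxidative phosphorylation genes lower. Of all genes with at least 0.25 RPKM, 5.79% were more than 2-fold higher and 9.64% lower. The oxidative phosphorylation genes reached down to 0.29 RPKM in WT and 0.03 RPKM in G34R cells, below any member. With 1 library per cell line, no difference between these groups was tested.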

How the data were processed

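RNA-seq of WT and G34R ES cells was analysed, with 1 library for each. As described in the study's methods and labels, the authors aligned stranded 50 bp single-end reads to mm9 with STAR (version 2.4.2a), and quantitated primary alignments in Seqmonk over merged isoforms on the strand of each gene. They deposited RPKM, read density corrected for transcript length and library size, for 26127 genes. RPKM is relative to each library's total, so a change in a few very high genes moves all others. The Seqmonk version used for RNA-seq was not given in the sources used here.

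Ratios of the deposited RPKM were taken as log2 of G34R over WT, after raising values below 0.01 to 0.01, for genes that reached 0.25 RPKM in either library. A gene was called at more than 2-fold, as in the study, or 1.5-fold. No test was used. Depth was estimated from the smallest RPKM steps, in genes of 1 exon shorter than 800 bp and holding under 6 reads. Reads per gene were estimated from RPKM, merged exon length in GENCODE M1 and this depth, and 95% intervals of the ratio are Clopper-Pearson intervals of those reads. PCR reads without molecular identifiers are not independent molecules, so intervals cover counting error only. The depth estimate was tested on counts simulated at a known depth.

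Members were matched by symbol, and the members and lists were chosen with earlier results of these data known. Named genes were the 8 members of highest and 5 of lowest mean RPKM, the 8 largest and 8 smallest ratios, members past 1.5-fold, those in structural groups, and, of other mitochondrial lists, genes past 1.5-fold and the 3 of highest mean RPKM. Neighbouring and overlapping genes, markers, and Nrf1, Yy1, Ppargc1a and members named for copies, gene models or RefSeq motifs were named outside this rule, after their values were seen. Mrpl55 was moved to the proteins without a bacterial counterpart, and out of the central protuberance, after its values were seen, to correct the list. Alternatives were other pseudocounts, filters, scalings and thresholds. Scripts ran on Python 3.11.15 with pysam 0.24.0, SciPy 1.17.1, NumPy 2.4.6, matplotlib 3.10.9 and pandas 2.3.3.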

Additional observations from a re-analysis of the deposited data

How the results depend on the processing

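No paired analysis was possible because each cell line had 1 library, and for the same reason no replicate could be left out. The median log2 (G34R/WT RPKM) of the members stayed below 0 under every alternative, from -0.12 with ratios centred on the median of all genes to -0.24 with at least 5 RPKM. Members more than 1.5-fold lower numbered 2 in place of 5 with 1 added to every value (Mrpl32 and Mrpl18), 2 with RPKM rescaled to the same sum, 2 with that sum taken without the 10 highest genes, and 1 with centred ratios (Mrpl32). Members more than 1.5-fold higher numbered 1 with 1 added (Mrpl55). Leaving out members with over 5% of exonic 50-base words elsewhere, an alternative chosen after seeing the data, left 1 lower (Mrps17) and 1 higher (Mrpl55) past 1.5-fold. The others past it, Mrpl32, Mrpl18, Mrpl42, Mrpl51 and Mrps21, were all among the 24 members left out. With centred ratios, 50 members were lower and 24 higher. The median of the translation factors was -0.17 at no less than 5 RPKM, in place of -0.05, over fewer genes. Of 66 named genes, 9 moved by more than a counting half-width, 6 of them with 1 added. For members this was the half-width of their own interval, and for genes of other lists the members' median of 0.097. The signs of Mrpl23, Mrpl28, Aurkaip1 and Grsf1 turned with rescaling or centring. Leaving chromosome 8 out of the other lists, also chosen after seeing the data, turned the median of mitoribosomal proteins with other names from 0.02 to -0.02 and no other list's sign. Depth is an estimate here, and the effect of read assignment on genes with copies in the genome was not tested.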
